A study of Mus musculus with 12 samples.

Results

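The 10 genes described here serve the uptake and intracellular binding of fatty acids, and were followed in livers of suckling pups with and without PPARα, the nuclear receptor encoded by *Ppara*. They were *Cd36*; *Slc27a1*, *Slc27a2*, *Slc27a4* and *Slc27a5*; *Fabp1*, *Fabp2*, *Fabp4* and *Fabp5*; and *Dbi*. They were listed by symbol for their function, with earlier results of these data known. Where several probe sets named 1 gene and no other, the one brightest on average stood for it, which left 19938 genes on the array, with 10 of the 10 listed genes among them. The arrays came from whole livers of 12 pups at postnatal day 2 (P2), labelled as strain SV129: 6 *Ppara*+/+ and 6 *Ppara*-/- pups, each with 3 males and 3 females and 1 array per pup. *Ppara*+/- parents were crossed to give both genotypes within a litter. The null allele was carried in all tissues, pups came from 3 litters per genotype according to the methods of the study, and the methods name a C57BL/6 background where the labels name SV129. Since the labels do not assign pups to litters, no litter term could be fitted, and the p-values rest on differences among pups.

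Long-chain fatty acids, the main fuel of a suckling animal, reach the liver from milk fat and from adipose tissue. CD36 is a membrane receptor that facilitates their uptake, and the SLC27 proteins (fatty acid transport proteins) couple uptake to activation with coenzyme A. Inside the cell, fatty acid binding proteins (FABPs) carry the free acids, with FABP1 as the abundant form of hepatocytes, and DBI, the acyl-CoA binding protein, carries the activated acyl-CoA esters. Fatty acids are also ligands of PPARα, which binds DNA together with a retinoid X receptor at direct repeats of a short core sequence.

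In *Ppara*-/- livers *Fabp1*, *Fabp5* and *Slc27a2* fell, *Dbi* rose, and the other 6 genes did not pass the test. *Fabp1* fell 1.43-fold, *Slc27a2* 1.14-fold and *Fabp5* 1.13-fold, whereas *Dbi* rose 1.16-fold. The counts of 3 lower and 1 higher among 10 stood against 1.12% lower and 1.99% higher among all 19938 genes. Because the 10 were chosen with earlier results of these data known, the counts are a description and were not tested against those shares. The median log2 difference of the 10 genes, -0.03, lay beside a median of -0.01 over all genes. The limma model held genotype and sex, a gene was called at an adjusted p under 0.05 (Benjamini-Hochberg over all 35556 probe sets), and levels are log2 signals. *Fabp1* was the only one of the 4 whose change also exceeded 1.3-fold.

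Arrays had medians of 7.16 to 7.20 and maxima of 14.51 to 14.60, and any pair of them correlated at 0.989 or above. *Ppara* was lower in every *Ppara*-/- liver (10.21 to 10.33) than in every *Ppara*+/+ liver (10.98 to 11.27), a 1.85-fold difference of the means. Hepatocyte markers, led by *Alb*, stood at a list mean between 13.94 and 14.00 in all 12 arrays. Limma called 0 of 6 measured markers (0 at an unadjusted p under 0.05, 1 by an unadjusted exact Mann-Whitney test). These list means lie near the array maxima, where a difference may be flattened. Whether the share of hepatocytes differed between genotypes was not tested. Intestinal transcripts set 2 pups apart, *Ppara*-/- replicate 11 and *Ppara*+/+ replicate 1, with list means of 8.12 and 7.18 against 6.17 to 6.65 in the other 10 arrays. Without both pups *Fabp1* was still called, and *Fabp5*, *Slc27a2* and *Dbi* were not (adjusted p = 0.0731, 0.0640 and 0.101 in limma with n = 5 per genotype), while their log2 differences stayed at -0.18, -0.20 and 0.21. A lower or higher signal from whole liver cannot be told apart from fewer or more cells of the type that makes the transcript.

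**Figure D1:**
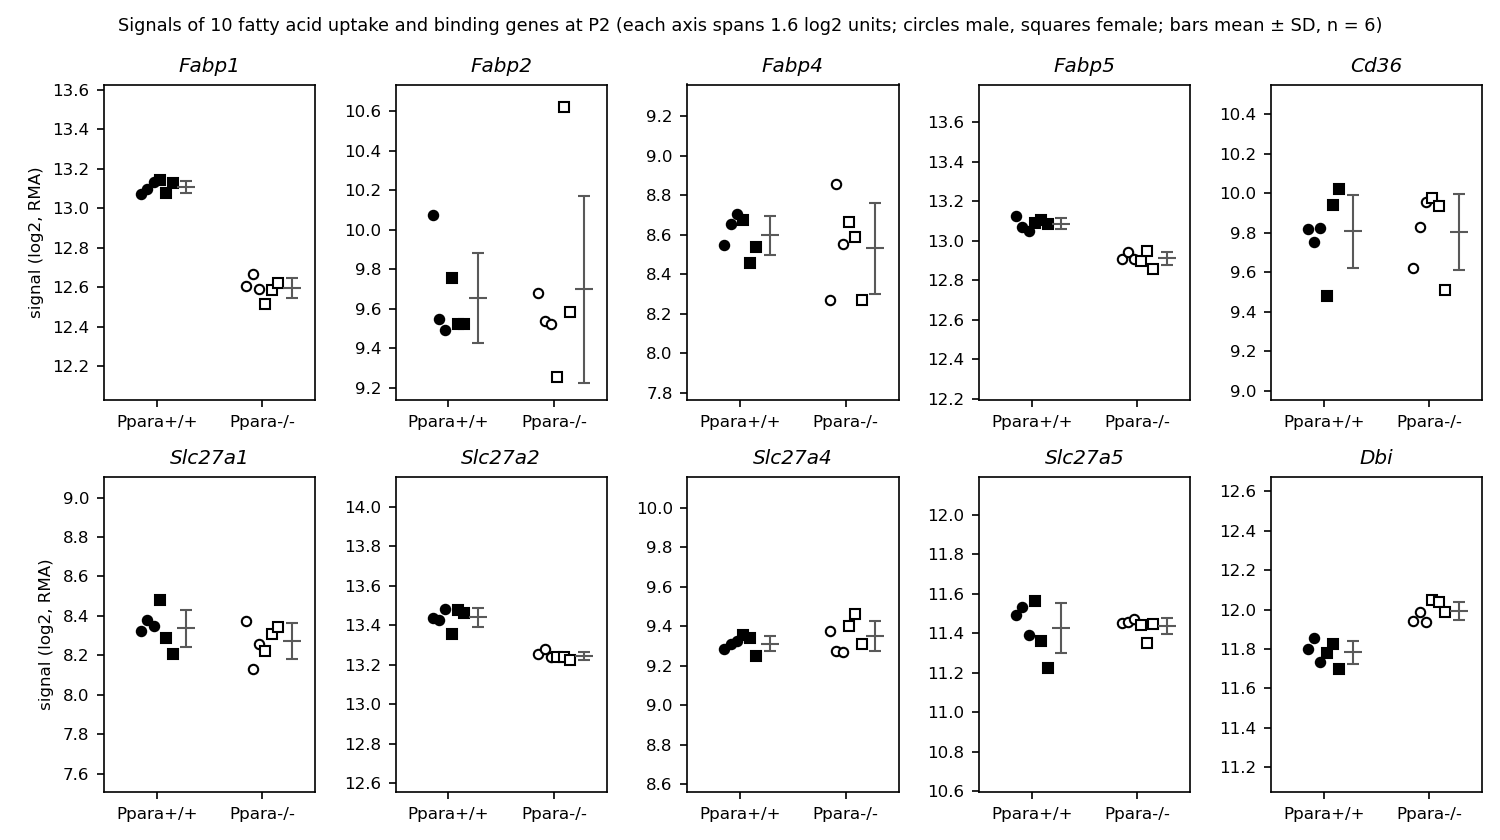
Log2 signals of the 10 genes at P2, with 1 point per array, filled for *Ppara*+/+ and open for *Ppara*-/-, circles for males and squares for females. Bars give mean ± SD of 6 arrays, and every vertical axis spans the same number of log2 units. The genotypes are separated for *Fabp1*, *Fabp5*, *Slc27a2* and *Dbi* and overlap for the other 6 genes.

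The sequences before the starts of *Fabp1*, *Slc27a2* and *Cd36* are shown because the first 2 fell without the receptor and *Cd36*, whose signal did not pass, holds a closer match to the receptor's motif than *Slc27a2*. They are the 250 bases before the annotated start in RefSeq, build GRCm38.p6, 5′ to 3′ on the strand of the gene: chr6:71199629-71199878 (+ strand) for *Fabp1*, chr2:126552774-126553023 (+ strand) for *Slc27a2* and chr5:17835897-17836146 (- strand) for *Cd36*. Capitals mark the stretch closest to the direct repeat AGGTCANAGGTCA on either strand.
Fabp1: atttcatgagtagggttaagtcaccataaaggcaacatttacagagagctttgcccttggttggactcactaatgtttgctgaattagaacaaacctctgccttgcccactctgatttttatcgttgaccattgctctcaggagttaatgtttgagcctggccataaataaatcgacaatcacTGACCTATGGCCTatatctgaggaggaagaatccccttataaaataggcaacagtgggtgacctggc
Slc27a2: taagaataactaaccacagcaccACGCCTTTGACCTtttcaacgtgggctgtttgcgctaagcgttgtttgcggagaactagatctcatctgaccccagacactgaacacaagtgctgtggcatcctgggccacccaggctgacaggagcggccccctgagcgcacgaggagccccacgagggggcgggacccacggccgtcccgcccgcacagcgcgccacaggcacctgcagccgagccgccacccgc
Cd36: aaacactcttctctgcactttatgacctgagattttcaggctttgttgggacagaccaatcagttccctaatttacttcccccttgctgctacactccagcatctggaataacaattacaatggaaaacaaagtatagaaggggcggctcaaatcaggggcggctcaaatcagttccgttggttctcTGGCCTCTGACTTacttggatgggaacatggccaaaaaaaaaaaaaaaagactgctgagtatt

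The repeat was searched on both strands over its 12 fixed letters, with the middle base free. The *Fabp1* match had 1 mismatch, lay 55 to 67 bases before the start and ran on the opposite strand to the gene, as did those of *Cd36* and *Slc27a2*. Of all 32851 promoter windows in the RefSeq table, 0.484% held a match that close. The *Cd36* match had 2 mismatches, 51 to 63 bases before its start, a closeness reached by 3.24% of all windows. The *Slc27a2* match had 3, 215 to 227 bases before its start, and 21.3% of all windows held one with 3 or fewer. The core AGGTCA, which is part of the repeat, was counted on both strands over all 250 bases. It occurred 2 times before *Fabp1* and 1 time each before *Slc27a2* and *Cd36*, against at least 1 occurrence in 14% of all windows. The *Cd36* core and 1 of the 2 *Fabp1* cores lay outside the capitals.

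The promoter table matched 7 of the 10 genes, some with several starts, for 10 windows in all. *Fabp2* (3 mismatches), *Slc27a4* (5), the 3 starts of *Slc27a1* (4 or 5) and the 2 starts of *Dbi* (4 or 5) had no closer match. *Fabp4*, *Fabp5* and *Slc27a5* were not in the table. No count over these windows was tested, and a match describes letters in this window only.

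*Fabp1*, which binds free fatty acids in the hepatocyte cytosol, showed the largest difference of the 10. Its signals ran from 13.07 to 13.14 with a median of 13.11 in *Ppara*+/+ livers and from 12.51 to 12.67 with a median of 12.60 in *Ppara*-/- livers. The highest *Ppara*-/- pup stood below the lowest *Ppara*+/+ pup, and the gap between the groups was wider than the range of either. The means were 13.11 ± 0.03 and 12.60 ± 0.05 (SD, n = 6 each), a log2 difference of -0.51 with SE 0.0352 and a 95% interval from -0.59 to -0.43 (adjusted p = 1.0e-05 from limma). On the linear scale this was a fall of 1.35- to 1.5-fold. *Fabp1* kept its call when any single array was left out (adjusted p from 4.0e-05 to 7.9e-05).

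*Fabp5*, the epidermal type of binding protein, also found in macrophages and in other tissues, had signals from 13.05 to 13.13 in *Ppara*+/+ livers (median 13.09) and from 12.86 to 12.95 in *Ppara*-/- livers (median 12.91). The groups did not overlap, though they stood close together. Its log2 difference was -0.18 with SE 0.0320 and a 95% interval from -0.25 to -0.11 (adjusted p = 0.0129 from limma, n = 6 each). A second probe set, which lists the same transcripts, gave -0.18 as well (adjusted p = 0.0124), with *Ppara*-/- signals from 12.54 to 12.63 and *Ppara*+/+ signals from 12.74 to 12.82. The 95% intervals of *Fabp1* and *Fabp5* did not overlap; the difference between them was not tested. All 12 measured Kupffer cell and macrophage markers had log2 differences above 0, where *Fabp5* lay below 0. None of the 12 was called by limma, though 8 had an unadjusted p under 0.05 and 8 passed the unadjusted exact Mann-Whitney test. Their list means overlapped between the genotypes through *Ppara*+/+ replicate 7 alone. The part of macrophages in the *Fabp5* signal was not tested.

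*Fabp4*, the binding protein of adipocytes, which capillary endothelium and macrophages also make, ranged from 8.46 to 8.71 in *Ppara*+/+ livers (median 8.60) and from 8.27 to 8.86 in *Ppara*-/- livers (median 8.57). The *Ppara*-/- pups held both the lowest and the highest value of all 12. The log2 difference was -0.06 with a 95% interval from -0.28 to 0.15 (adjusted p = 0.82 from limma), so a fall of up to 1.21-fold and a rise of up to 1.11-fold lay within it. All 5 measured adipocyte markers, *Adipoq* and *Plin1* among them, had mean signals below the array medians, and 0 were called or passed an unadjusted p under 0.05 in limma or in the exact Mann-Whitney test. Their list mean ran from 5.71 to 6.00 in *Ppara*-/- and from 5.75 to 6.07 in *Ppara*+/+ livers.

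*Fabp2*, the intestinal binding protein, varied more between pups than any other of the 10 genes. Its signals ran from 9.49 to 10.07 in *Ppara*+/+ livers (median 9.54) and from 9.25 to 10.62 in *Ppara*-/- livers (median 9.56). The highest value of each genotype was 10.62 in *Ppara*-/- replicate 11, well above the next at 9.68, and 10.07 in *Ppara*+/+ replicate 1, with the next at 9.76. In those same pups intestinal genes were high: *Alpi*, the intestinal alkaline phosphatase, stood at 9.80 and 8.24 against 5.49 to 6.71 in the other arrays, and *Lct*, lactase, at 9.19 and 7.87 against 6.29 to 6.77. *Vil1*, villin of the brush border, stood at 7.78 and 6.43, the next highest being 6.34, while *Cdx1* ran from 7.32 to 7.86 over all arrays with no such separation.

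The log2 difference of *Fabp2* between genotypes was 0.05 with a 95% interval from -0.39 to 0.49 (adjusted p = 0.95 from limma, n = 6 each). Without both pups it was -0.06, with means of 9.51 ± 0.16 in *Ppara*-/- and 9.57 ± 0.11 in *Ppara*+/+ livers (SD, n = 5 each), and without *Ppara*-/- replicate 11 alone it was -0.15. The SD of the *Ppara*-/- group fell from 0.47 with all 6 pups to 0.16 without replicate 11. Of the 6 intestinal markers 0 were called between genotypes by limma (0 at an unadjusted p under 0.05, 1 by an unadjusted exact Mann-Whitney test), and 5 had mean signals below the array medians. The part of intestinal transcripts in the *Fabp2* signal was not tested.

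**Figure D2:**
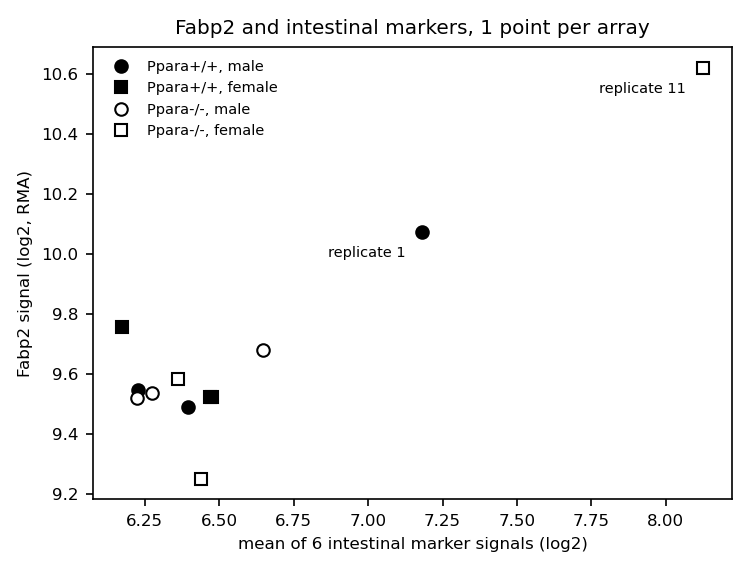
*Fabp2* signal (vertical axis, log2) against the mean of 6 intestinal marker signals (horizontal axis, log2), with 1 point per array. *Ppara*-/- replicate 11 and *Ppara*+/+ replicate 1 lie apart from the other 10 arrays on the horizontal axis, at 8.12 and 7.18, and hold the highest *Fabp2* signals, 10.62 and 10.07.

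Among the transporters *Slc27a2*, the very long chain acyl-CoA synthetase of peroxisomes and endoplasmic reticulum, had *Ppara*+/+ signals from 13.35 to 13.48 (median 13.45) and *Ppara*-/- signals from 13.22 to 13.28 (median 13.24). The groups did not overlap, and the *Ppara*-/- pups were more alike (SD 0.0188) than the *Ppara*+/+ pups (SD 0.0466). Its log2 difference was -0.19 with SE 0.0331 and a 95% interval from -0.27 to -0.12 (adjusted p = 0.0085 from limma, n = 6 each), and the adjusted p ran from 0.0049 to 0.0284 when each array was left out in turn. Its highest signal, 13.48, stayed below the lowest array maximum of 14.51, which cannot show whether a difference at this brightness was flattened. The same limit holds for *Fabp1* and *Fabp5*.

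*Slc27a5*, the bile acid-CoA ligase of the liver, ran from 11.23 to 11.56 in *Ppara*+/+ livers (median 11.44) and from 11.35 to 11.47 in *Ppara*-/- livers (median 11.45). The *Ppara*-/- values lay wholly within the *Ppara*+/+ range. The log2 difference was 0.01, between -0.11 and 0.13 (95% interval, adjusted p = 0.96 from limma). *Slc27a4*, a widely expressed member best known from enterocytes and skin, stood at 9.31 ± 0.04 in *Ppara*+/+ and 9.35 ± 0.08 in *Ppara*-/- livers (SD, n = 6 each), a log2 difference of 0.04 between -0.05 and 0.13. *Slc27a1*, typical of muscle and adipose tissue, stood at 8.34 ± 0.09 and 8.27 ± 0.09, a log2 difference of -0.06 between -0.19 and 0.06. None of these 3 transporters passed in limma (adjusted p = 0.73 for *Slc27a4* and 0.66 for *Slc27a1*), and the widest bound of their 95% intervals was a fall of 1.14-fold, for *Slc27a1*.

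*Cd36* gave no difference in the mean, with 9.81 ± 0.19 in *Ppara*+/+ and 9.80 ± 0.19 in *Ppara*-/- livers (SD, n = 6 each). Its signals ran from 9.48 to 10.02 (median 9.82) and from 9.51 to 9.98 (median 9.88), and the *Ppara*-/- values lay wholly within the *Ppara*+/+ range. The log2 difference was -0.0023 with SE 0.106 and a 95% interval from -0.23 to 0.23 (adjusted p = 0.99 from limma). A fall of up to 1.18-fold and a rise of up to 1.17-fold lay within it. Markers of liver endothelium, a cell type that also makes *Cd36* and *Fabp4*, had log2 differences above 0 for 12 of 12 measured genes (median 0.13). Their list means ran from 10.253 to 10.357 in *Ppara*-/- and from 10.101 to 10.250 in *Ppara*+/+ livers, and did not overlap. Their part in the *Cd36* and *Fabp4* signals was not tested. None of the 12 was called by limma, 8 had an unadjusted p under 0.05, and 9 passed an unadjusted exact Mann-Whitney test. Over all 19938 genes, 8998 lay above 0 and 10940 below. Markers of 1 cell type were read from the same arrays and are not separate observations.

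*Dbi*, which binds medium- and long-chain acyl-CoA esters, rose. Its signals ran from 11.70 to 11.86 in *Ppara*+/+ livers (median 11.79) and from 11.94 to 12.05 in *Ppara*-/- livers (median 11.99). The lowest *Ppara*-/- pup stood above the highest *Ppara*+/+ pup. The log2 difference was 0.21 with SE 0.0393 and a 95% interval from 0.12 to 0.29 (adjusted p = 0.0162 from limma, n = 6 each), and without *Ppara*-/- replicate 11 it was 0.20 and no longer called (adjusted p = 0.0512). Kupffer cell and macrophage markers lay on the same side, with log2 differences above 0 for 12 of 12 measured genes, a median of 0.19 and list means from 10.18 to 10.31 in *Ppara*-/- against 9.92 to 10.29 in *Ppara*+/+ livers. The overlap came from *Ppara*+/+ replicate 7 alone, at 10.29, which also had the lowest erythroid mean of its genotype, 11.42; the next highest *Ppara*+/+ array stood at 10.10. None of these 12 was called, 8 had an unadjusted p under 0.05 in limma and 8 passed the unadjusted exact Mann-Whitney test; their part in the *Dbi* difference was not tested. Erythroid markers lay on the other side, with log2 differences below 0 for 10 of 10 measured genes (median -0.18, list means from 11.34 to 11.69 in *Ppara*-/- against 11.42 to 11.81 in *Ppara*+/+ livers), none called by limma, 7 at an unadjusted p under 0.05 and 4 by the unadjusted exact Mann-Whitney test.

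**Figure D3:**
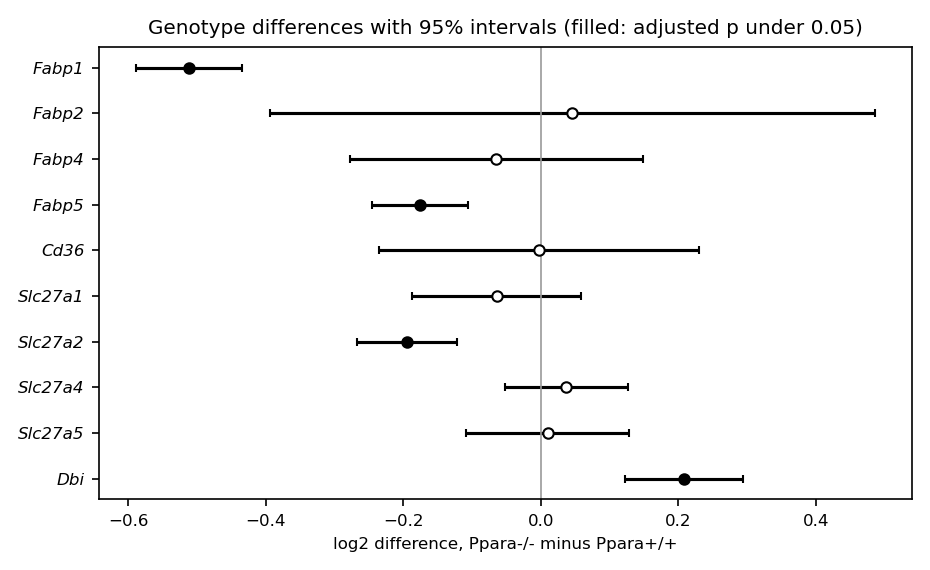
Log2 difference between *Ppara*-/- and *Ppara*+/+ livers for the 10 genes (horizontal axis) with 95% intervals from limma, n = 6 per genotype. Filled points passed an adjusted p under 0.05: *Fabp1* at -0.51, *Slc27a2* at -0.19, *Fabp5* at -0.18 and *Dbi* at 0.21. The widest interval, from -0.39 to 0.49, is that of *Fabp2*.

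The 4 genes called were also those whose genotypes did not overlap, 3 lower and 1 higher. Of all genes, 1.43% were separated with *Ppara*-/- lower and 2.88% with *Ppara*-/- higher. These counts too describe a list chosen with earlier results known and were not tested. The same 4 had the smallest unadjusted exact Mann-Whitney p that 6 against 6 arrays allow, 0.0022, which became 0.0691 after adjustment over all probe sets.

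*Fabp1* was called within each sex as well, with log2 differences of -0.48 in males and -0.54 in females (SE 0.0509 each, adjusted p = 0.0015 and 6.4e-04 from limma, n = 3 per genotype and sex). It was the only one of the 10 called within males, where 0.928% of all genes were, and within females, where 0.808% were. *Slc27a2* stood at -0.19 in males and -0.20 in females, *Fabp5* at -0.16 and -0.19, and *Dbi* at 0.16 and 0.26, none of which passed within a sex alone. For the interaction of genotype and sex 0 of the 10 were called by limma and 0 had an unadjusted p under 0.05; over all genes 0% were called, and 357 had an unadjusted p under 0.05. Between females and males 0 of the 10 were called and 0 had an unadjusted p under 0.05, against 0.0401% of all genes called.

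The genes whose signals followed each called gene most closely over the 12 arrays were read among 9959 genes with a mean above the median of gene means. For *Fabp1* they were *Acadvl* (Pearson r = 0.990), *Eci1* (0.990) and *Cyp4a14* (0.988), enzymes of mitochondrial β-oxidation and of ω-oxidation that fell as well. Within genotypes the likeness was uneven, with r = 0.59 among the *Ppara*-/- and 0.24 among the *Ppara*+/+ pups for *Acadvl*, -0.00031 and 0.85 for *Eci1*, and 0.19 and -0.44 for *Cyp4a14*. For *Slc27a2* they were *Lepr*, the leptin receptor (0.971), *Slc25a30*, a mitochondrial carrier (0.961), and *Decr1*, the mitochondrial dienoyl-CoA reductase (0.960). *Lepr* also followed it within each genotype (r = 0.74 among *Ppara*-/- and 0.85 among *Ppara*+/+ pups). In the same order, r was 0.86 and 0.44 for *Slc25a30* and 0.61 and 0.45 for *Decr1*. For *Fabp5* they were *Serpina7*, thyroxine-binding globulin (0.976), *Rab30*, a small GTPase (0.967), and *Slc25a30* (0.966). Among *Ppara*-/- and *Ppara*+/+ pups r was 0.86 and 0.73 for *Serpina7*, 0.83 and -0.096 for *Rab30*, and 0.42 and 0.66 for *Slc25a30*. For *Dbi* they were *Tmem176b*, a membrane protein (0.974), *Lcn2*, lipocalin 2 (0.954), and *Masp2*, a protease of the complement system (0.953). *Lcn2* followed *Dbi* within genotypes at r = 0.98 among *Ppara*-/- and 0.78 among *Ppara*+/+ pups, and both rose. In the same order, r was 0.79 and 0.88 for *Tmem176b* and 0.48 and 0.86 for *Masp2*. These correlations describe points that share the genotype difference and were the closest of many, so they carry no p.

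The rest of the FABP family showed no called member in the limma fit used for the 10 genes. Of 6 measured genes, *Fabp3*, *Fabp6*, *Fabp7*, *Fabp9*, *Fabp12* and *Pmp2*, limma called 0, with 1 at an unadjusted p under 0.05, and the same gene passed the unadjusted exact Mann-Whitney test. It was *Fabp7*, the brain type, at 8.17 ± 0.33 in *Ppara*+/+ and 8.67 ± 0.13 in *Ppara*-/- livers (SD, n = 6 each). Its log2 difference was 0.50 (adjusted p = 0.0976 from limma, and 0.0077 without *Ppara*+/+ replicate 7). Limma also called it with array weights (adjusted p = 0.0185), for probe sets of 1 gene (0.0494) and with probe set means (0.0473). With any other single array left out the adjusted p from limma ran from 0.123 to 0.204. Without both pups with intestinal transcripts it was 0.252. The other 5 genes lay between -0.08 and -0.02 and had mean signals below the array medians. Of the related retinoid-binding genes *Rbp2*, *Rbp7*, *Crabp1* and *Crabp2*, 0 passed and 1 had an unadjusted p under 0.05 in either test: *Rbp2*, which carries retinol in enterocytes, at a log2 difference of 0.64 (adjusted p = 0.135). *Rbp2* was highest in *Ppara*-/- replicate 11, at 10.62, where the intestinal markers were also highest, but in *Ppara*+/+ replicate 1 it stood at 9.54, below replicate 9 at 9.57, and without both pups its log2 difference was 0.61. *Slc27a3* (0.15, adjusted p = 0.32 from limma) and *Slc27a6* (0.08, adjusted p = 0.64) did not pass either. The former had an unadjusted p under 0.05 in limma, and neither passed the unadjusted exact Mann-Whitney test. Both had signals below the array median in all 12 arrays, as did *Rbp7* and *Crabp2*.

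Other proteins with an acyl-CoA or sterol carrier domain fell in part. Of 7 measured genes 2 fell and none rose, against 1.12% lower and 1.99% higher among all genes, and the list median was -0.07. This list too was chosen with earlier results known, and its counts were not tested. *Acbd5*, an acyl-CoA binding protein of the peroxisomal membrane, ran from 9.40 to 9.64 in *Ppara*+/+ and from 8.99 to 9.27 in *Ppara*-/- livers, a fall of 1.33-fold (log2 difference -0.41, SE 0.0568, adjusted p = 0.0023 from limma). *Eci2*, an enoyl-CoA isomerase with an acyl-CoA binding domain, fell 1.51-fold (adjusted p = 7.4e-05). Both thus moved in the opposite direction to *Dbi*, and in both the genotypes did not overlap. *Scp2* (-0.09, adjusted p = 0.40), *Acbd3* (0.10), *Acbd4* (-0.07), *Acbd6* (0.05) and *Acbd7* (-0.02) did not pass.

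Among 8 measured genes listed as other uptake proteins, 2 fell and 1 rose, with a list median of 0.09. Among all genes 1.12% were lower and 1.99% higher, and the counts of this list were not tested. *Vldlr*, the very low density lipoprotein receptor, rose 1.36-fold, from 8.64 to 8.94 in *Ppara*+/+ livers to 9.15 to 9.41 in *Ppara*-/- livers (log2 difference 0.44, SE 0.0598, adjusted p = 0.0019 from limma). *Lpl*, lipoprotein lipase, fell 1.31-fold (log2 difference -0.39, adjusted p = 0.0014). *Lrp1*, a remnant receptor, fell by 0.29 (adjusted p = 0.0211) and lost its call when *Ppara*-/- replicate 10, *Ppara*-/- replicate 11 or any of *Ppara*+/+ replicates 1, 2 and 8 was left out (0.0539 to 0.0601), and without both pups with intestinal transcripts its adjusted p was 0.146. *Got2*, which is also described as a fatty acid binding protein of the plasma membrane, stood at 0.03 (adjusted p = 0.79). *Cav1* (0.23), *Scarb1* (0.12), *Gpihbp1* (0.06) and *Mfsd2a* (0.14) did not pass, and *Mfsd2a* was highest, at 9.05 and 7.43, in the same 2 pups as the intestinal markers.

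**Figure D4:**
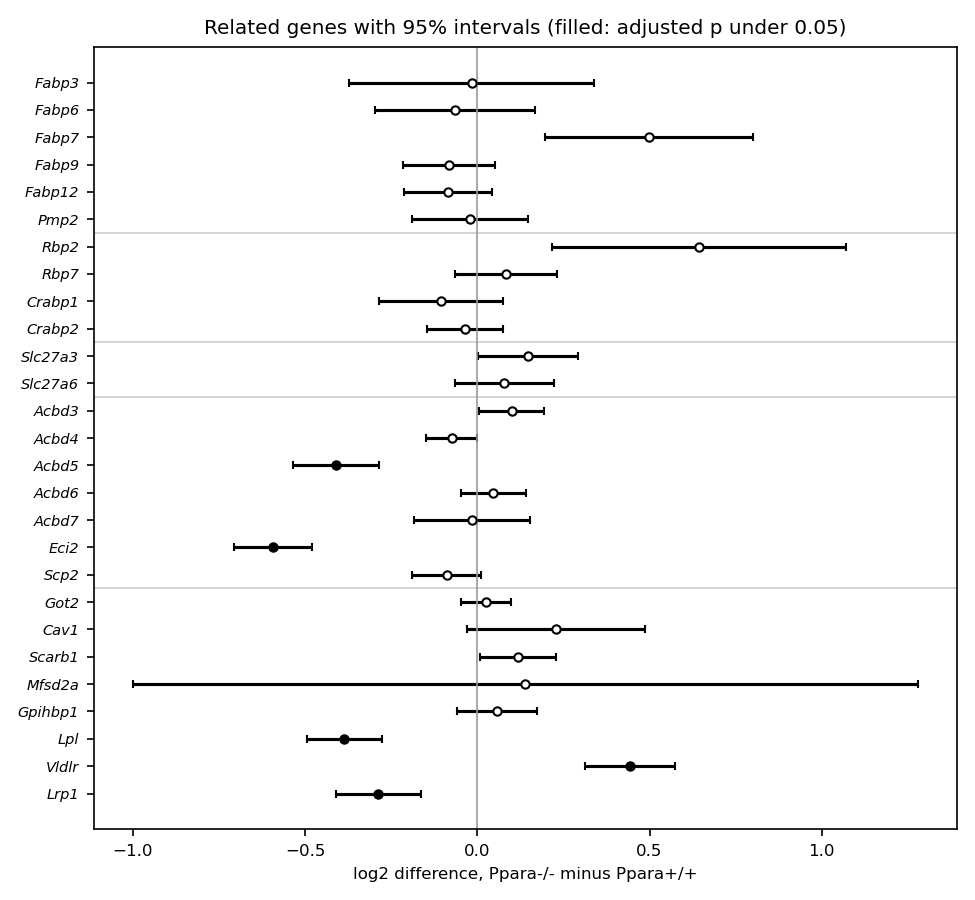
Log2 difference between *Ppara*-/- and *Ppara*+/+ livers for the related genes (horizontal axis) with 95% intervals from limma, n = 6 per genotype. Grey lines separate, from the top, the other FABPs, retinoid-binding relatives, other SLC27 transporters, other acyl-CoA binding proteins and other uptake proteins. Filled points passed an adjusted p under 0.05: *Acbd5*, *Eci2*, *Lpl* and *Lrp1* below 0 and *Vldlr* above 0.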

How the data were processed

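Liver RNA of 12 pups at P2 was measured on Affymetrix Mouse Gene 1.0 ST arrays. Each deposited value is the log2 signal of a probe set, which the authors made with RMA (background correction, quantile normalization and summary; version not given in the sources used here), and they were used as deposited. The number of pups limits the precision. All 35556 probe sets entered 1 limma fit (version 3.58.1, under R 4.3.3; lmFit, then eBayes, on terms for genotype and for sex; 9 residual and 2.49 prior degrees of freedom), with Benjamini-Hochberg adjustment over all probe sets. Interaction and within-sex contrasts came from a fit of 4 groups. Of the probe sets, 21789 name 1 gene, 1621 several and 12146 none; of the genes, 99.6% were found in RefSeq by identifier.

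The members and lists were chosen with earlier results of these data known. Genes named are the members, *Ppara*, called genes of the related lists (with uncalled ones where their values help), the marker genes that bear on a result, and the 3 genes closest to each called member. Marker lists covered hepatocytes, erythroid cells, macrophages, endothelium, adipocytes and intestine. Alternatives were a fit without sex, quantile normalization, median centring, leaving out dim probe sets (below the 40th percentile), restriction to probe sets of 1 gene, array weights, a robust trend of the variance, probe set means, a Mann-Whitney test, a 1.3-fold minimum and leaving out each array. Leaving out 2 pups with intestinal transcripts was added after seeing the data. A comparison of protein sequences was not made because no protein sequences were at hand. Tested on simulated data of 35556 probe sets with 50 changed at each size, this comparison found 10 of those changed 1.15-fold, 29 of those changed 1.3-fold, 31 of those changed 1.5-fold and 48 of those changed 2-fold. It made 6 false calls.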

Additional observations from a re-analysis of the deposited data

Results flagged for a closer look

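In groups of 6 arrays, 34 groups of values (the 10 genes, *Ppara* and 6 marker lists in each genotype) were checked for a highest or lowest array that stood apart from the rest; chance gives this in about 1 in 20 groups, and 5 were found. *Fabp2* in *Ppara*-/- replicate 11 stood at 10.62 with the next highest at 9.68. The mean of the intestinal markers was 8.12 in the same array, with the next highest at 6.65, and in *Ppara*+/+ replicate 1 it was 7.18, with the next at 6.48. *Slc27a5* in *Ppara*-/- replicate 11 stood at 11.35, below the next lowest at 11.45. The mean of the erythroid markers in *Ppara*+/+ replicate 7 was 11.42, below the next lowest at 11.67. The causes were not tested.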

How the results depend on the processing

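Of the 10 genes, *Fabp1* kept its direction and its call under 22 of 23 alternatives, with a log2 difference between -0.54 and -0.49; the exception was the adjusted Mann-Whitney test (exact, over all probe sets), which called 0 genes lower and 0 higher among the 10 and 0 and 0 among the related genes. Under that test the unadjusted p of *Fabp1*, *Fabp5*, *Slc27a2* and *Dbi* was 0.0022. With a minimum change of 1.3-fold 1 of the 10 was lower and 0 higher. Without the 2 pups with intestinal transcripts, an alternative chosen after seeing the data, 1 was lower and 0 higher. With each array left out in turn 3 stayed lower and 0 to 1 were higher, the 0 coming without *Ppara*-/- replicate 11. Among the related genes the 1 higher became 2 for probe sets of 1 gene, 2 with array weights, 2 with probe set means and 4 with the unadjusted Mann-Whitney test, and 1 to 2 with each array left out (2 without *Ppara*+/+ replicate 7). In each setting with 2 higher, the gene beside *Vldlr* was *Fabp7*. Direction changed only for genes that were not called. With each array left out the log2 difference ran from -0.15 to 0.15 for *Fabp2*, -0.13 to 0.0019 for *Fabp4*, -0.0757 to 0.064 for *Cd36*, -0.0268 to 0.0477 for *Slc27a5*, -0.159 to 0.089 for *Fabp3*, -0.0802 to 0.0292 for *Pmp2*, -0.0622 to 0.0243 for *Acbd7* and -0.39 to 0.41 for *Mfsd2a*. Without the 2 pups it was -0.0623 for *Fabp2*, 0.0619 for *Pmp2*, 0.0213 for *Acbd7* and -0.15 for *Mfsd2a*; with median centring it was 0.0033 for *Cd36*, and with quantile normalization 0.0096 for *Pmp2* and 0.0105 for *Acbd7*. The causes were not tested. Replicate numbers run from 1 to 12 over both genotypes and pair no arrays. No paired analysis was possible because the genotypes share no replicate number.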
